A study of Mus musculus with 8 samples.

Results

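Ccl3, Ccl4, Ccl5, Ccl6 and Ccl9 are 5 genes of the CC chemokine family that lie side by side on mouse chromosome 11. They were taken by symbol from the deposited table, which holds 54532 genes, and all 5 symbols were found there once. RNA was sequenced from macrophages that had been cultured from mouse bone marrow. The 8 libraries form 4 groups of 2: ELF1 KO cells with LPS for 6 h, WT cells with LPS for 6 h, ELF1 KO cells without LPS and WT cells without LPS. Elf1 encodes a transcription factor of the ETS family, and LPS is the bacterial lipopolysaccharide sensed by the receptor TLR4. The libraries with LPS carry the label M1, taken here to mean the LPS arm, since the design describes no other stimulus. How the KO allele was made, whether other cells of the mice lacked the gene, the animals' age and strain, and whether libraries of a group came from separate animals are not stated in the sources used here, so the p-values rest on the spread within pairs of libraries, which may be technical.

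Chemokines are small secreted proteins that bind G protein-coupled receptors on leukocytes and direct their migration. Ccl3, Ccl4 and Ccl5 are classical products of activated macrophages. Ccl3 and Ccl5 bind the receptor Ccr1, and Ccl5 also binds Ccr3. Ccl6 and Ccl9 are rodent chemokines that act through Ccr1, have a longer amino-terminal part than the other 3 proteins, and gain activity when proteases trim it. Macrophages are known to make Ccl6 and Ccl9 without a stimulus, while the transcription of Ccl3, Ccl4 and Ccl5 follows LPS through NF-kB and, for Ccl5, also interferon regulatory factors.

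On the mm10 build used by the submitters, the 5 genes spanned 138906 bases of chromosome 11. In the deposited coordinates Ccl5 lay at chr11:83525778-83530518, Ccl9 at chr11:83572919-83578636, Ccl6 at chr11:83587882-83593087 and Ccl3 at chr11:83647844-83649355, all on the minus strand, and Ccl4 lay at chr11:83662584-83664683 on the plus strand. The gaps between neighbours were 42400 bases from Ccl5 to Ccl9, 9245 bases from Ccl9 to Ccl6, 54756 bases from Ccl6 to Ccl3 and 13228 bases from Ccl3 to Ccl4. Only Ccl3 and Ccl4, of the 4 neighbouring pairs, stand on opposite strands. In the GENCODE M21 annotation Ccl3, Ccl4 and Ccl5 each had 3 coding segments, coding for 92, 92 and 91 codons. Ccl6 and Ccl9 had 4, coding for 116 and 122 codons, and their additional second segment, of 48 bases in Ccl6 and 72 bases in Ccl9, holds the longer amino-terminal part. The genes share little sequence with others. Of all 31-base windows of their annotated transcripts, none was found in a transcript of another gene for Ccl3, Ccl4 and Ccl5, 1.28% were for Ccl6 and 4.03% for Ccl9, and no window was shared among the 5. The noncoding gene E230016K23Rik runs across Ccl6 on the other strand without exon overlap and reached at most 0.122 FPKM, the deposited unit, which is reads divided by gene length and by a library size set by the authors.

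The promoters of Ccl3, Ccl6 and Ccl9 are printed because the factor targeted in the KO cells is of the ETS family, whose members bind a GGAA core. The sequences are from RefSeq on GRCm38.p6 and run from 250 bases before to 50 bases after the annotated start, 5′ to 3′ on the minus strand, with each ETS core (GGAA, or TTCC on the other strand) in capitals. RefSeq promoters matched 3 of the 5 genes; those of Ccl4 and Ccl5 are not shown.
Ccl3 (chr11:83649329-83649628): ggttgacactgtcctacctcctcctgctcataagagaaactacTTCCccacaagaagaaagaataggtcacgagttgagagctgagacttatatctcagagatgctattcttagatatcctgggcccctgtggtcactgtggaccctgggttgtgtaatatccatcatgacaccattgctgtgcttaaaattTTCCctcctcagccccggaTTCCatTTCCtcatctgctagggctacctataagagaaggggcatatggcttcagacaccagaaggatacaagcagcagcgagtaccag
Ccl6 (chr11:83593038-83593337): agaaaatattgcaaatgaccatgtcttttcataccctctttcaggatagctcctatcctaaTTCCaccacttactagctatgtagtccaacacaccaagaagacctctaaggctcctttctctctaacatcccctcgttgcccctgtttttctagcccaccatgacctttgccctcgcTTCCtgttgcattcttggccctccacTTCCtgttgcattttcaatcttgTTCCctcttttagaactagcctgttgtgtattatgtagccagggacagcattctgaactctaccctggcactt
Ccl9 (chr11:83578587-83578886): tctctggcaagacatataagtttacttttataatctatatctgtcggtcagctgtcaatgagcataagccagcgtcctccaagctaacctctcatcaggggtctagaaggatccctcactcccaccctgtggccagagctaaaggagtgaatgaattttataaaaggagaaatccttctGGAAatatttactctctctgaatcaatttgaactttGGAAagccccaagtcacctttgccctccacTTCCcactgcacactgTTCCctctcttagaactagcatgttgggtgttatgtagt
Each of the 3 promoters held 4 cores, and 46.3% of the 32851 promoters in the RefSeq table held at least 4. The longer sequence CGGAAG, searched on both strands, was in none of the 3 and in 16.8% of all promoters. The Ccl9 promoter held 3 matches to TATAAA, of which 2 overlap each other, and 1 match to TGANTCA, the sequence bound by AP-1. TATAAA was in 13.6% of all promoters, with at least 3 matches in 0.411%, and TGANTCA was in 7.81%. A match to the kappaB consensus stood 35 bases before the Ccl9 start and overlaps an ETS core, and 8.46% of promoters held one. The Ccl6 promoter held 1 match to TTGCAA, the C/EBP sequence, found in 6.23% of promoters. The interferon-stimulated response element was in none of the 3 and in 3.44% of all. The Ccl6 and Ccl9 promoters resemble each other around the start: a local alignment of 74 columns held 59 identical bases (79.7%), from position -59 to 15 of Ccl6 and from -18 to 49 of Ccl9, and 2 ETS cores of each gene lie in it. Against either of these, the best alignment of the Ccl3 promoter was 11 or 12 columns long.

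Libraries were alike in depth. Reads rebuilt from the deposited values numbered 15753259 to 17133646 per library with LPS and 17297543 to 18058974 without. All 8 macrophage markers listed (Adgre1, Csf1r, Cd68, Itgam, Mertk, Lyz2, Fcgr1 and Cd14) averaged at least 1 FPKM, and their summed FPKM was 8441 to 9145 in KO-labelled libraries with LPS, 7664 to 7786 in WT with LPS, 9958 to 10508 in KO-labelled without LPS and 9043 to 9146 in WT without LPS. T and NK cells also make Ccl3, Ccl4 and Ccl5: 2 of their 11 markers (Cd4 and Lck) averaged at least 1 FPKM, Cd3d and Cd8b1 were listed at 0 in all 8 libraries, and the list summed to 4.17 to 4.49 FPKM in KO-labelled libraries with LPS, 5.61 to 6.19 in WT with LPS, 4.82 to 5.03 in KO-labelled without LPS and 4.70 to 4.75 in WT without LPS. The order of these T and NK sums with LPS is that of Ccl3, Ccl4 and Ccl5, and its part in the results was not tested. The sums rest on Cd4 and Lck, and every other marker of that list stayed at or below 0.132 FPKM in each library. Lck had 1.85 and 2.44 FPKM in KO-labelled and 3.48 and 3.36 in WT libraries with LPS, and at most 0.0460 without LPS. Stromal and endothelial markers summed to 8.29 to 8.94 FPKM in KO-labelled libraries with LPS, 9.41 to 15.5 in WT with LPS, 1.23 to 3.09 in KO-labelled without LPS and 3.50 to 9.50 in WT without LPS, which was not tested against the results either. Markers of B cells, neutrophils, dendritic cells, mast cells and erythroid cells summed to at most 8.96 FPKM per list in any library. Elf1 itself was read in every library: 16.5 and 17.9 FPKM in KO-labelled libraries with LPS, 21.9 and 22.4 in WT with LPS, 16.9 and 16.1 in KO-labelled without LPS and 12.4 and 14.1 in WT without LPS. Because a gene's summed reads would not reveal a deleted exon, the genotype is not checked by these values, and the libraries are called KO-labelled throughout.

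Ccl3 had 514 and 515 FPKM in KO-labelled libraries with LPS, 1205 and 1235 in WT with LPS, 30.4 and 26.1 in KO-labelled without LPS and 13.6 and 15.1 in WT without LPS. Ccl4 had 432 and 400.1 FPKM in KO-labelled libraries with LPS, 859 and 909.9 in WT with LPS, 20.0 and 16.0 in KO-labelled without LPS and 12.1 and 12.4 in WT without LPS. For both genes the KO-labelled libraries lay below WT with LPS and above WT without LPS, and no pair of groups overlapped. In bulk RNA fewer cells making a transcript and less of it per cell cannot be told apart.

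Ccl5 had the widest range of the 5 genes. It stood at 1713 and 1592 FPKM in KO-labelled libraries with LPS, 2126 and 2289 in WT with LPS, 1.55 and 1.50 in KO-labelled without LPS and 2.38 and 2.44 in WT without LPS. KO-labelled libraries were the lower ones in both conditions, again without overlap. The values without LPS rest on few reads: 33 and 32 reads in KO-labelled libraries, against 50 and 51 in WT. Their 95% Poisson intervals, which cover counting error only, run from 21.9 to 46.3 reads in the KO-labelled and from 37.1 to 67.1 reads in the WT libraries.

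Ccl6 and Ccl9 were the most abundant of the 5 without LPS. Ccl6 had 39.7 and 38.2 FPKM in KO-labelled libraries with LPS, 34.8 and 33.0 in WT with LPS, 66.3 and 66.7 in KO-labelled without LPS and 41.2 and 46.9 in WT without LPS. It alone of the 5 was lower in every LPS library than in every library without LPS, and KO-labelled libraries were the higher ones in both conditions. Ccl9 had 505 and 488 FPKM in KO-labelled libraries with LPS, 584 and 571 in WT with LPS, 46.7 and 48.6 in KO-labelled without LPS and 42.7 and 52.6 in WT without LPS. Its libraries without LPS overlapped between the genotype labels, the one overlap between groups among the 5 genes.

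**Figure D1:**
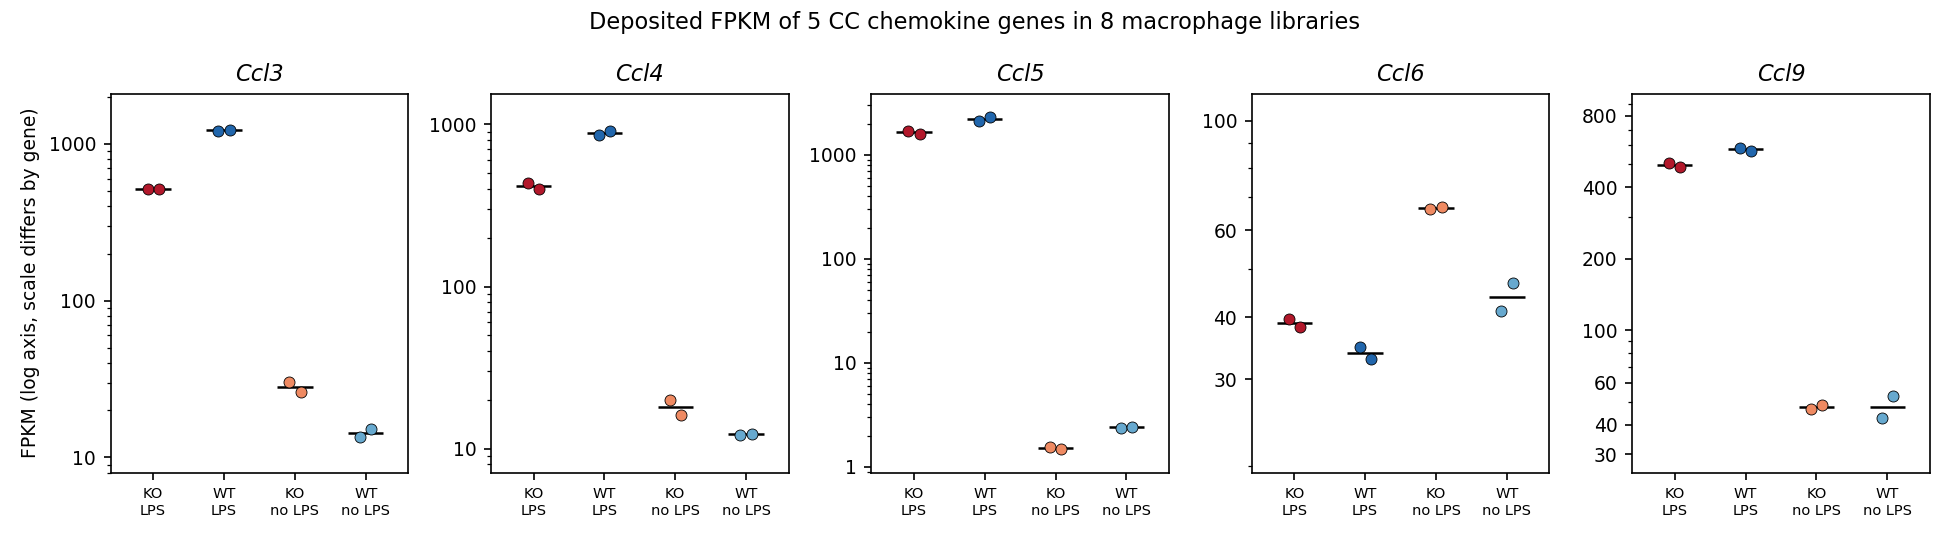
FPKM (log axis, with a scale of its own for each gene) of the 5 genes in each library, as 1 point per library with a bar at the mean of the 2. Ccl3 and Ccl4 in KO-labelled libraries sit between 400.1 and 515 FPKM with LPS, all below the WT libraries, whereas Ccl6 lies between 33.0 and 39.7 FPKM in all 4 LPS libraries, below the libraries without LPS.

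The first question is how each gene responded to LPS within a genotype label. With limma on log2(FPKM + 1), called at a Benjamini-Hochberg adjusted p under 0.05 over the 11887 genes tested, Ccl3, Ccl4, Ccl5 and Ccl9 rose and Ccl6 fell, under both labels. That is all 5 genes passing, where 65.9% of all tested genes passed in KO-labelled cells (34.7% higher, 31.2% lower) and 71.5% in WT cells (37.7% higher, 33.9% lower). Of the genes that passed, 52.7% in KO-labelled and 52.6% in WT cells were higher as deposited, against 26.3% in KO-labelled and 25.7% in WT cells with TPM, 26.4% and 25.3% with total-read and 42.0% and 41.8% with quantile scaling. The median of all genes moved to -0.42 in KO-labelled and -0.51 in WT cells with TPM, and to -0.37 and -0.48 with total-read scaling. The median change of the 5 was 4.14 in KO-labelled cells and 6.06 in WT cells, against medians of 0.02 and 0.04 over all tested genes. Passing was thus common in this comparison. Ordered by log2 change, Ccl5 ranked 2 in KO-labelled cells and 7 in WT cells among all 11887 genes, and Ccl9, the lowest of the 4, ranked 260 and 290.

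Ccl5, known as RANTES, changed by 9.35 ± 0.05 in log2 (SE; adjusted p = 9.735e-10) in KO-labelled cells and by 9.34 ± 0.05 (adjusted p = 4.876e-10) in WT cells. As a ratio of mean FPKM this is 1084-fold with 1652 ± 85.8 against 1.52 ± 0.0401 in KO-labelled cells, and 916-fold with 2208 ± 115 against 2.41 ± 0.0471 in WT cells (SD, n = 2). The log2 values understate these ratios because the 1 FPKM added before taking logs is close to the level without LPS. Ccl3, a Ccr1 ligand that attracts leukocytes, rose 18.2-fold in KO-labelled cells (log2 4.14 ± 0.08, adjusted p = 2.47e-08) and 85.0-fold in WT cells (log2 6.32 ± 0.08, adjusted p = 4.028e-09). Ccl4, the chemokine gene beside it, rose 23.1-fold in KO-labelled cells (log2 4.46 ± 0.10, adjusted p = 4.344e-08) and 72.2-fold in WT cells (log2 6.06 ± 0.10, adjusted p = 9.215e-09).

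Of the rodent Ccr1 ligands, Ccl9 rose 10.4-fold in KO-labelled cells (log2 3.36 ± 0.09, adjusted p = 1.16e-07) and 12.1-fold in WT cells (log2 3.58 ± 0.09, adjusted p = 6.834e-08). Ccl6 fell to 0.585 of its level without LPS in KO-labelled cells (log2 -0.76 ± 0.07, adjusted p = 5.365e-05) and to 0.769 in WT cells (log2 -0.37 ± 0.07, adjusted p = 0.002027). Ccl6 and Ccl9, which are neighbours with the same layout of coding segments, moved in opposite directions with LPS. None of the 10 LPS calls was lost and none changed direction under the 19 alternatives tried.

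The second question is what the KO label changed in LPS-treated cells. Ccl3, Ccl4 and Ccl5 were lower in KO-labelled than in WT cells, and Ccl6 and Ccl9 did not pass: 3 of 5 lower, where 28.9% of all tested genes passed and 18.1% were lower. Ccl3 averaged 514 ± 0.301 FPKM in KO-labelled and 1219.9 ± 21.5 FPKM in WT cells (SD, n = 2 each), a ratio of 0.422 and a log2 difference of -1.24 ± 0.08 (limma, adjusted p = 1.45e-04). Ccl4 averaged 416 ± 22.4 FPKM in KO-labelled and 884 ± 36.2 FPKM in WT cells, a ratio of 0.470 and a log2 difference of -1.09 ± 0.10 (adjusted p = 4.11e-04). The difference in Ccl5 was smaller, with a ratio of 0.748 and a log2 value of -0.42 ± 0.05 (adjusted p = 0.001961). All 3 calls held in each of the 19 alternatives, but the size depended on the scaling. Ccl5 was -0.21 with TPM and -0.20 with total-read scaling, Ccl3 -1.04 and -1.03, and Ccl4 -0.88 and -0.87. With quantile scaling Ccl5 was -0.31, Ccl3 -1.04 and Ccl4 -0.70. The balance of all calls in this comparison depends on the scaling: 37.4% of the genes that passed were higher as deposited, against 73.2% with TPM, 75.1% with total-read and 53.6% with quantile scaling.

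Ccl6 averaged 38.9 ± 1.09 FPKM in KO-labelled and 33.9 ± 1.27 FPKM in WT cells with LPS, with a log2 difference of 0.20 ± 0.07 (adjusted p = 0.06821). Ccl9 averaged 497 ± 12.2 FPKM in KO-labelled and 578 ± 9.56 FPKM in WT cells with LPS, with a log2 difference of -0.22 ± 0.09 (adjusted p = 0.1174). Both depended on the setting. Ccl6 passed as higher with TPM, total-read and quantile scaling (log2 0.40, 0.41 and 0.36). Ccl9 passed as lower with voom on the rebuilt reads and with only the libraries compared. Ccl6 as higher and Ccl9 as lower also passed when either WT library without LPS was left out. The Ccl9 difference was -0.014 with TPM, 0.00016 with total-read and 0.12 with quantile scaling, and -0.24 to -0.19 over the 8 omissions of a library. Under TPM and total-read scaling the median of all genes in this comparison moved to 0.15 and 0.14, and relative to it Ccl6 differed by 0.26 and 0.27 and Ccl9 by -0.16 and -0.14, against 0.22 and -0.19 as deposited.

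Without LPS, Ccl3, Ccl4 and Ccl6 were higher in KO-labelled than in WT cells, Ccl5 was lower and Ccl9 did not pass, so 4 of the 5 genes were called where 5.64% of all tested genes were (1.72% higher, 3.92% lower). Of the genes called, 30.6% were higher as deposited, 54.8% with TPM, 52.0% with total-read and 42.1% with quantile scaling. Ccl3 averaged 28.3 ± 3.04 FPKM in KO-labelled and 14.3 ± 1.09 FPKM in WT cells, a ratio of 1.97 (log2 0.93 ± 0.08, limma adjusted p = 0.002177). Ccl6 averaged 66.5 ± 0.281 FPKM in KO-labelled and 44.0 ± 4.01 FPKM in WT cells, a ratio of 1.51 (log2 0.59 ± 0.07, adjusted p = 0.005727). Ccl4 averaged 18.0 ± 2.78 FPKM in KO-labelled and 12.2 ± 0.215 FPKM in WT cells, a ratio of 1.47 (log2 0.51 ± 0.10, adjusted p = 0.03088). Ccl5, with the few reads given above, had a ratio of 0.633 (log2 -0.43 ± 0.05, adjusted p = 0.008363), and Ccl9 a log2 difference of 0.0080 ± 0.09 (adjusted p = 0.9813, 95% interval -0.21 to 0.22).

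These calls were less firm than those with LPS. The Ccl4 call ended when any library other than KO-labelled replicate 2 without LPS was left out (log2 0.36 to 0.66 over the 8 omissions) and with a replicate block (adjusted p = 0.05342), and those of Ccl5 (-0.45 and -0.42) and Ccl6 (0.59 and 0.58) ended without KO-labelled replicate 1 or 2 lacking LPS. In a model of the 4 libraries without LPS alone none of the 5 passed (adjusted p = 0.06804 for Ccl3, 0.1414 for Ccl4, 0.09004 for Ccl5 and 0.07922 for Ccl6), and that model called 51 genes in all, against 671 with the 4 groups together.

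**Figure D2:**
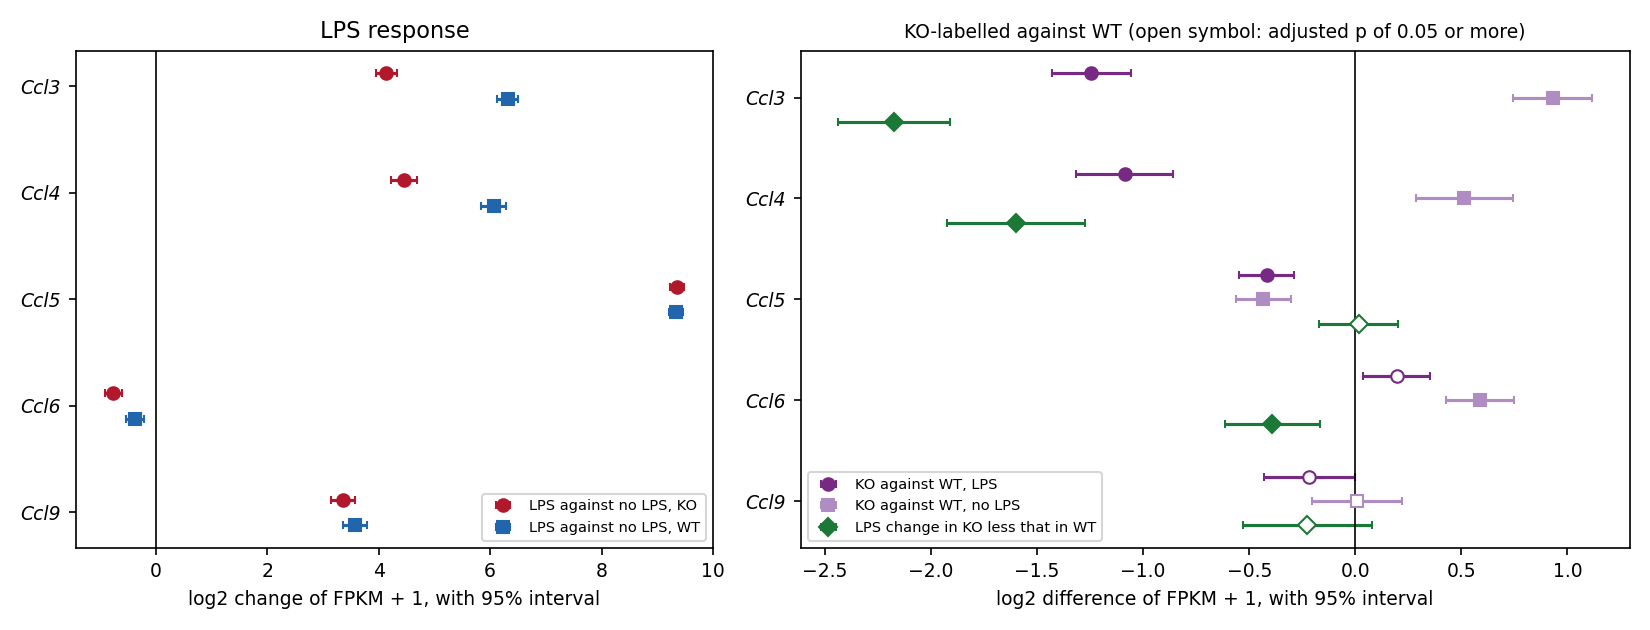
Log2 changes on the log2(FPKM + 1) scale with 95% intervals from limma for the 5 genes, by comparison. With LPS, Ccl3 and Ccl4 are lower in KO-labelled cells (-1.24 and -1.09), and without LPS they are higher (0.93 and 0.51).

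The test of whether the LPS change itself differed between the labels is the interaction, the LPS change in KO-labelled cells less that in WT cells. It was negative and passed for Ccl3, Ccl4 and Ccl6, so 3 of the 5 genes were called lower, where 16.0% of tested genes passed and 10.3% were lower. Of the genes that passed, 35.3% were higher as deposited, 57.4% with TPM, 63.8% with total-read and 51.8% with quantile scaling. For Ccl3 it was -2.17 ± 0.11 (adjusted p = 6.992e-04), which ranked 15 from the lowest of 11887 genes, and for Ccl4 -1.60 ± 0.14 (adjusted p = 0.00131), which ranked 66. For Ccl6 it was -0.39 ± 0.09 (adjusted p = 0.03441), a deeper fall in KO-labelled cells. That call ended with TPM (-0.27), total-read (-0.25) or quantile (-0.36) scaling, with a replicate block (adjusted p = 0.06018), and without any 1 of the 6 libraries other than WT without LPS.

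Ccl5 did not pass: its interaction was 0.02 ± 0.08 (adjusted p = 0.9244), with a 95% interval of -0.17 to 0.20 while its level was lower in KO-labelled cells in both conditions. With a pseudocount of 5 the value was -0.23, and with TPM scaling it was 0.31 and passed (adjusted p = 0.03837). Ccl9 had an interaction of -0.23 ± 0.13 (adjusted p = 0.2886, 95% interval -0.53 to 0.08), and it was called without WT replicate 2 lacking LPS (-0.37, adjusted p = 0.01656). The intervals of Ccl5 and Ccl9 do not show that the labels act alike on them.

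Ratios between genes of the same library do not depend on a scaling that divides all genes of a library by the same factor, which quantile normalization does not do. Their size does rest on the deposited gene lengths, which are the same in all libraries. With LPS there were 1.04 ± 0.0261 Ccl3 transcripts for each Ccl9 transcript in KO-labelled cells and 2.11 ± 0.0721 in WT cells (ratio of FPKM, SD, n = 2 each). Without LPS the same ratio was 0.595 ± 0.0802 in KO-labelled and 0.303 ± 0.0217 in WT cells. Ccl3 relative to Ccl4 stayed in a narrow band, at 1.24 ± 0.0675 in KO-labelled and 1.38 ± 0.0322 in WT cells with LPS, and at 1.58 ± 0.0748 in KO-labelled and 1.17 ± 0.0688 in WT cells without LPS. Ccl6 relative to Ccl9 was 0.0784 ± 2.73e-04 in KO-labelled and 0.0586 ± 0.00122 in WT cells with LPS, and 1.40 ± 0.0328 in KO-labelled and 0.928 ± 0.0525 in WT cells without LPS.

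The make-up of the 5 transcripts changed with LPS. Their summed FPKM averaged 3118 in KO-labelled and 4923 in WT cells with LPS, and 162 in KO-labelled and 121 in WT cells without LPS. Ccl5 made up 53.0% of that sum in KO-labelled and 44.8% in WT cells with LPS, but 0.941% in KO-labelled and 2.01% in WT cells without. Ccl6 went the other way, with 1.25% in KO-labelled and 0.689% in WT cells with LPS, and 41.1% in KO-labelled and 36.5% in WT cells without. Ccl3 made up 16.5% in KO-labelled and 24.8% in WT cells with LPS, and 17.4% in KO-labelled and 11.9% in WT cells without. The order of mean levels with LPS was Ccl5, Ccl3, Ccl9, Ccl4, Ccl6 in KO-labelled cells and Ccl5, Ccl3, Ccl4, Ccl9, Ccl6 in WT cells. Without LPS the order was Ccl6, Ccl9, Ccl3, Ccl4, Ccl5 in KO-labelled and Ccl9, Ccl6, Ccl3, Ccl4, Ccl5 in WT cells. These orders and shares rest on the deposited gene lengths, which exceed the coding transcript for Ccl5 (960 against 532 bases) and Ccl6 (1795 against 1440 bases). For Ccl9 the lengths were close (3045 against 3006 bases). The order of Ccl6 and Ccl9 in WT cells without LPS, at 44.0 and 47.6 FPKM, depends on the length used. The same reads divided by the coding transcript lengths would put Ccl6 above Ccl9 there, as in KO-labelled cells.

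**Figure D3:**
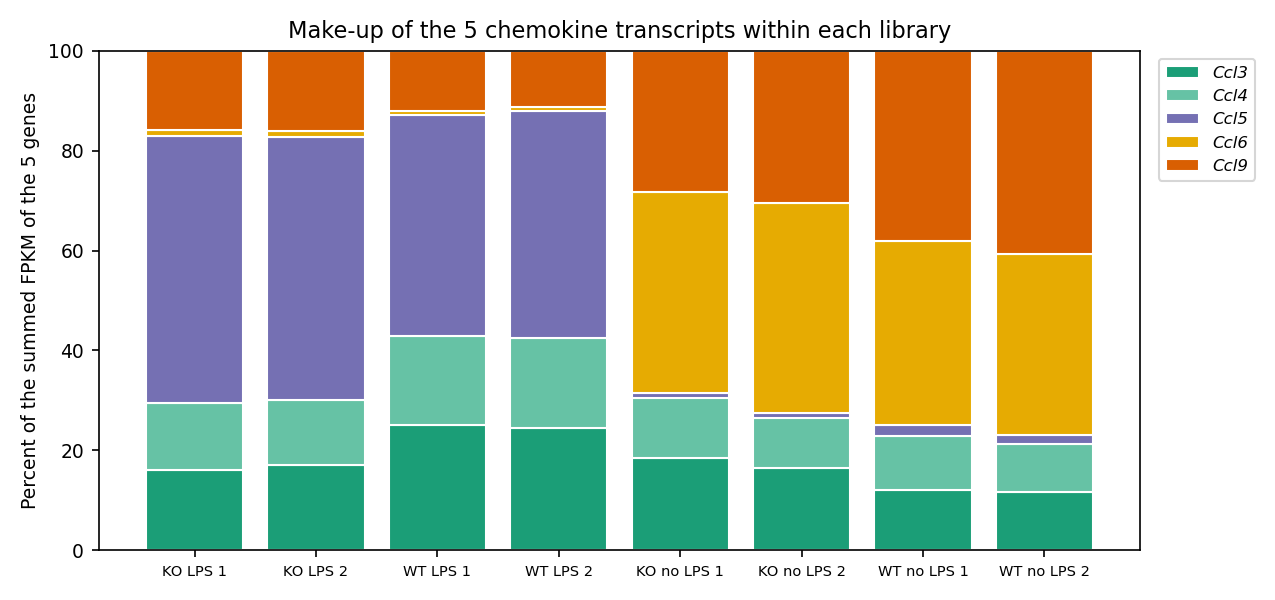
Share of each gene, in percent, in the summed FPKM of the 5 genes, as 1 stacked bar per library. Ccl5 takes the largest share of all 4 LPS libraries and Ccl6 with Ccl9 most of the libraries without LPS, where Ccl5 averages 0.941% in KO-labelled and 2.01% in WT cells.

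Within 100 kb of the 5 genes the deposited table lists 18 other genes, of which 5 were at 0 in all libraries, 11 (with those 5) stayed under 1 FPKM and 5 were tested. Wfdc17, a small secreted protein of the whey acidic protein family on the far side of Ccl4, had 391 and 267 FPKM in KO-labelled libraries with LPS, 398 and 401 in WT with LPS, 41.4 and 40.2 in KO-labelled without LPS and 20.5 and 24.7 in WT without LPS. Like Ccl3 and Ccl4 it was higher in KO-labelled cells without LPS (log2 0.83 ± 0.17, limma adjusted p = 0.03972) and had a negative interaction (-1.14, adjusted p = 0.02205), while its difference with LPS was -0.31 (adjusted p = 0.2247). The Wfdc17 difference without LPS did not pass when any library but the KO-labelled ones with LPS was left out or with a replicate block, its interaction did not pass without any 1 of 5 libraries, and its difference with LPS passed without KO-labelled replicate 1 with LPS (-0.58). Heatr9, next to Ccl5, was near 0 without LPS and had 6.99 and 7.25 FPKM in KO-labelled libraries with LPS, against 10.1 and 11.2 in WT with LPS (log2 -0.52, adjusted p = 0.004435), a call that ended with TPM scaling (-0.36). Taf15, an RNA-binding protein gene, rose with LPS by 1.38 in KO-labelled and 1.53 in WT cells, and Heatr6 at the other end by 1.44 in KO-labelled and 1.50 in WT cells. The fifth tested neighbour, the small RNA gene Gm23247, lies within Heatr9 on the other strand, and its reads cannot be told from those of Heatr9 without knowing how strand was counted.

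**Figure D4:**
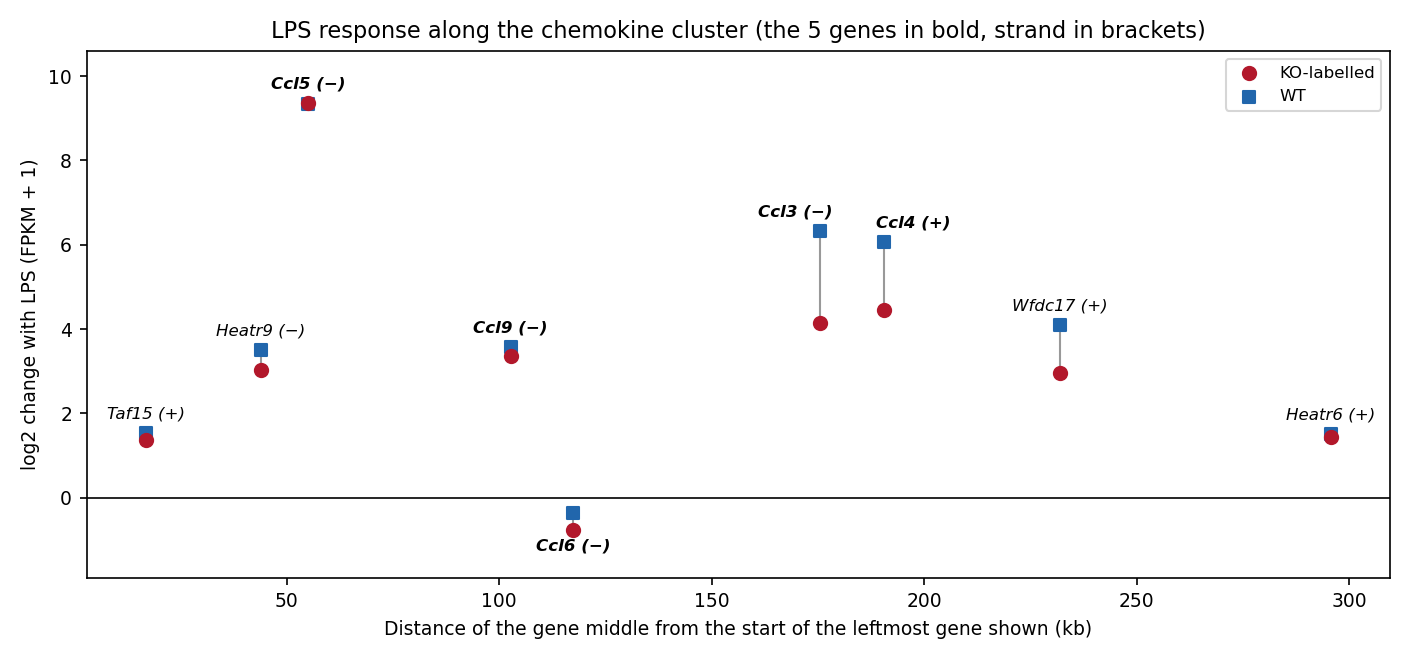
Log2 change with LPS on the log2(FPKM + 1) scale in KO-labelled and WT cells, against the distance in kb of each gene's middle from the start of the leftmost gene shown, for the 5 chemokine genes and 4 tested neighbours (Gm23247 left out). The distance between the points of a gene is its interaction, widest for Ccl3 (-2.17), Ccl4 (-1.60) and Wfdc17 (-1.14).

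Receptors of these ligands were also read in the same cells. Ccr1, which binds Ccl3, Ccl5, Ccl6 and Ccl9, had 8.21 and 10.3 FPKM in KO-labelled libraries with LPS, 13.6 and 13.4 in WT with LPS, 5.63 and 5.48 in KO-labelled without LPS and 3.96 and 4.67 in WT without LPS. It rose with LPS by 0.64 ± 0.11 in KO-labelled cells (adjusted p = 0.001567) and by 1.45 ± 0.11 in WT cells (adjusted p = 1.773e-05), with an interaction of -0.81 ± 0.15 (adjusted p = 0.01473). With LPS it was lower in KO-labelled cells (log2 -0.51 ± 0.11, adjusted p = 0.01308), and without LPS its difference was 0.31 (adjusted p = 0.1594). The Ccr1 difference with LPS did not pass with TPM (-0.34) or total-read (-0.30) scaling or without either WT library with LPS, its rise in KO-labelled cells did not pass with TPM (0.24) or total-read (0.22) scaling, and its interaction did not pass without either KO-labelled library lacking LPS or either WT library with LPS. Ccr3, which binds Ccl5, did not exceed 2 FPKM in any library and rose with LPS by 1.09 in KO-labelled and 0.91 in WT cells. Because Ccr3 reached 1 FPKM only with LPS, the filter favoured this rise.

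Ccrl2 is an atypical receptor that does not signal through G proteins. It had 111 and 111 FPKM in KO-labelled libraries with LPS, 219.6 and 237 in WT with LPS, 12.6 and 12.2 in KO-labelled without LPS and 12.6 and 14.6 in WT without LPS. Its rise with LPS was 3.07 in KO-labelled and 3.98 in WT cells, with an interaction of -0.91 (limma, adjusted p = 0.002954) and a difference with LPS of -1.03 (adjusted p = 2.064e-04). The scavenging receptors Ackr1 and Ackr2, which bind CC chemokines without signalling, were listed at 0 in all 8 libraries.

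**Figure D5:**
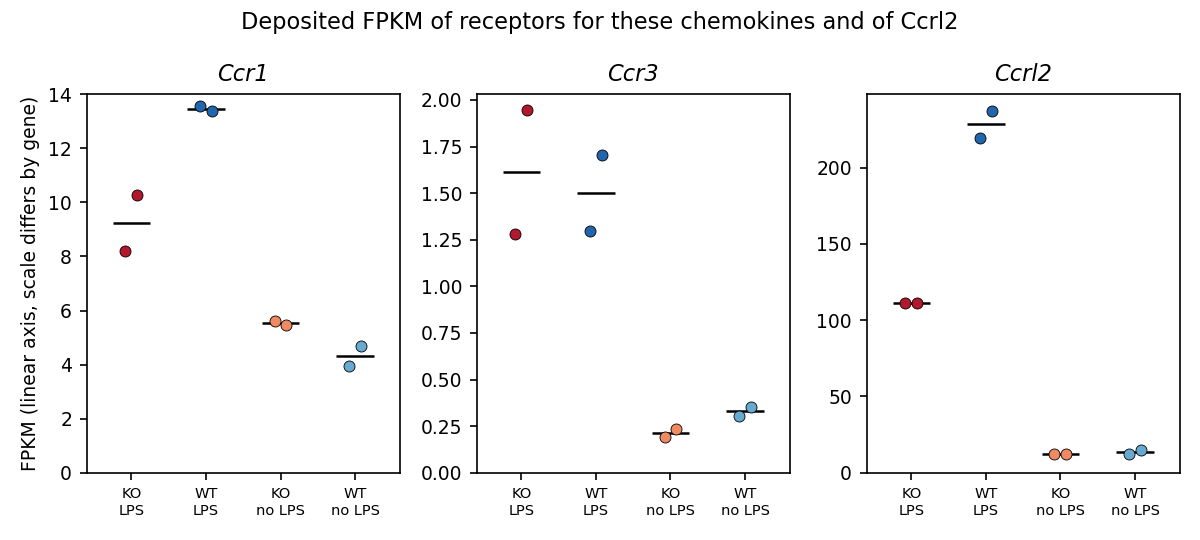
FPKM (linear axis from 0, with a scale of its own for each gene) of Ccr1, Ccr3 and Ccrl2 in each library, as 1 point per library with a bar at the mean of the 2. With LPS the KO-labelled libraries lie below WT for Ccr1 and Ccrl2, and in Ccrl2 the gap is 111 FPKM in each KO-labelled library against 219.6 and 237 in WT.

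Beside the 5 genes, 15 other CC chemokine genes were listed, and 6 of them passed the filter on low values. All 6 rose with LPS under both labels, where 34.7% of all tested genes were higher in KO-labelled and 37.7% in WT cells. Ccl7, Ccl8, Ccl12, Ccl22 and Ccl24 reached 1 FPKM only in libraries with LPS, so the filter favoured a rise for them. Ccl25 missed the filter, at 0.733 FPKM with and 0.940 without LPS in KO-labelled cells, and 0.580 and 0.824 in WT cells. With TPM scaling 9 of the list were tested, of which 6 rose and 2 fell under each label, and with total-read scaling 7 were tested, of which 6 rose and 1 fell. In KO-labelled against WT cells with LPS 3 of the 6 were lower, 1 was higher and 2 did not pass, with a median of -1.04 over the 6, where 10.8% of all tested genes were higher and 18.1% lower. Without LPS limma called 0 of the 6 (1 at an unadjusted p under 0.05), where it called 5.64% of all tested genes. Voom on the rebuilt reads and quantile scaling also called 0 of the 6. Ccl2 passed as higher with TPM (0.97) and total-read (0.64) scaling, a pseudocount of 0.1 (1.03) and an FPKM minimum of 5 (0.55). Ccl2, the main monocyte attractant, had 21.2 and 26.6 FPKM in KO-labelled libraries with LPS, against 94.8 and 114 in WT with LPS (log2 -2.08 ± 0.13, adjusted p = 1.392e-04). Ccl7 and Ccl12, which share the receptor Ccr2 with it, were also lower, with log2 differences of -2.53 (adjusted p = 3.969e-04) and -1.62 (adjusted p = 0.002893). Ccl22, a ligand of Ccr4, was the one that was higher, with 13.9 and 11.5 FPKM in KO-labelled libraries with LPS against 3.84 and 4.23 in WT with LPS (log2 1.44 ± 0.12, adjusted p = 2.998e-04).

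Genes with the most similar course over the 8 libraries were ranked by the root mean square difference of log2(FPKM + 1), each gene centred on its own mean, among 10116 tested genes with assigned names, leaving out the 5 themselves. The same 3 genes came first for Ccl3 and for Ccl4: Igtp, an interferon-induced GTPase, Hcar2, a nicotinic acid receptor, and Isg20, an interferon-induced exonuclease. Their differences were 0.233, 0.214 and 0.307 from Ccl3 and 0.107, 0.136 and 0.168 from Ccl4. Ccl3 and Ccl4 differed from each other by 0.165, less than Ccl3 did from any of the 3, but more than Ccl4 did from Igtp and Hcar2. Nearest to Ccl5 were the collagenase Mmp13 (0.203), Acod1, which makes itaconate (0.329), and the acute-phase gene Saa3 (0.336). Nearest to Ccl9 were the ion channel Mcoln2 (0.112), the scavenger receptor Msr1 (0.117) and the phospholipase Pla2g4a (0.118). Nearest to Ccl6 were the lysosomal protease Ctsf (0.0622), Nxpe5 (0.0869) and Ptpdc1 (0.0878). Ccl6 was farther from each of the other 4 chemokines, by 2.03 from Ccl9 and by 4.97 from Ccl5. In WT cells without LPS, Hcar2, Isg20, Saa3 and Ptpdc1 averaged 0.249, 0.836, 0.316 and 0.667 FPKM, under the 1 FPKM added before taking logs. Nxpe5 averaged 1.08 there and 0.461 with LPS. At such levels the added 1 FPKM shrinks a change, so the ratios of FPKM can differ more than these distances show. These likenesses describe 8 libraries dominated by the LPS change and carry no test.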

How the data were processed

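The authors deposited 1 table of FPKM, fragments scaled by gene length and library size. Per the file headers it also holds the position and length of each of 54532 genes. Per the submitters' processing notes the build was mm10 and DESeq2 was used, at a version and for a step they do not name. Which aligner, counter and annotation were used is not given in the sources used here. Reads were rebuilt by multiplying FPKM by gene length and dividing by the smallest unit found in each library, which gave whole numbers, to a tolerance of 0.001, for 100% of values above 0. The library size implied by the FPKM was 0.914 to 0.925 of the rebuilt reads in KO-labelled and 0.784 to 0.797 in WT libraries with LPS, and 1.21 to 1.28 without LPS, so the deposited values carry a scaling beyond depth. Of the table's genes 28813 were at 0 in all 8 libraries, and a count of 0 allows 3 reads.

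The test was limma-trend (limma 3.58.1, R 4.3.3), run on log2(FPKM + 1) in 1 model of the 4 groups. It covered the 11887 genes that reached 1 FPKM in 2 or more libraries. p-values are two-sided and Benjamini-Hochberg adjusted within each of 5 comparisons, with a threshold of 0.05. The procedure was also run on simulated data with the same spread beyond counting error for every gene. That run does not show how it performs at the spread of these libraries. The alternatives were pseudocounts of 0.1 and 5, a filter at 5 FPKM or no filter, TPM, total-read and quantile scaling, voom on rebuilt reads, no mean trend, a replicate block, only the libraries compared, and leaving out each library. The labels number the replicates of each group, but nothing ties equal numbers together.

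The 5 genes, the 14 lists with 138 further genes and the tests were chosen with earlier results of these data known. Named genes are the 5, the genes within 100 kb, up to 4 list members with the largest changes among those passing, all listed receptors, the 3 genes nearest in course to each of the 5, and Elf1; of these, values are given for the comparisons that bear on the 5 genes, and some results are not reported here. Promoters came from RefSeq on GRCm38.p6 and transcripts from GENCODE M21.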

Additional observations from a re-analysis of the deposited data

Results flagged for a closer look

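In 3 genes the LPS change differed between KO-labelled and WT cells by the interaction test in limma. The difference, the LPS change in KO-labelled cells less that in WT cells in log2, was -2.17 for Ccl3, -1.60 for Ccl4 and -0.39 for Ccl6. Groups of 2 libraries are too small for a check of single libraries that stand apart.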

How the results depend on the processing

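Of the values of the 5 genes under the alternatives, 417 kept their direction and their side of the threshold, 32 lost the call, 12 gained one and 9 changed sign. For LPS in both labels, and for Ccl3, Ccl4 and Ccl5 with LPS in KO-labelled against WT cells, every alternative kept the call, as it did for the Ccl3 and Ccl4 interactions. The causes of the other changes were not tested. Without LPS, calls of KO-labelled against WT cells ended in the model of only the libraries compared (Ccl3 0.93, Ccl4 0.51, Ccl5 -0.43, Ccl6 0.59), Ccl4 also with no FPKM minimum (0.51), no mean trend (0.51) and a replicate block (0.51), and Ccl5 with a pseudocount of 5 (-0.18) and with voom (-0.65). Leaving out each library gave 0.36 to 0.66 for Ccl4, -0.45 to -0.42 for Ccl5, 0.50 to 0.68 for Ccl6 and -0.14 to 0.16 for Ccl9, whose sign changed without KO-labelled replicate 2 (-0.02) or WT replicate 1 (-0.14). With LPS, Ccl6 passed at an FPKM minimum of 5 (0.20), with TPM (0.40), total-read (0.41) and quantile (0.36) scaling, and ran from 0.16 to 0.23 over the omissions. Ccl9 was 0.00016 with total-read and 0.12 with quantile scaling. It passed with voom (-0.22) and only the libraries compared (-0.22), and ran from -0.24 to -0.19 over the omissions. Both genes also passed with LPS when either WT library without LPS was left out. The Ccl5 interaction was -0.23 with a pseudocount of 5, 0.31 with TPM and -0.0374 to 0.0688 over the omissions, with a change of sign in 3 (-0.00051, -0.0372 and -0.0374). The Ccl6 interaction did not pass with no FPKM minimum (-0.39), TPM (-0.27), total-read (-0.25) or quantile (-0.36) scaling, no trend (-0.39) or the block (-0.39), and ran from -0.48 to -0.30; that of Ccl9 was 0.062 with quantile scaling and ran from -0.37 to -0.078. With quantile scaling Sdc3 (0.053) and Sdc4 (0.016) changed sign with LPS. Genes called without LPS numbered 671, against 1684 with voom, 406 with the block, 51 with only the libraries compared and 137 to 536 over the omissions. With LPS the omissions gave 2114 to 3455 genes, against 3438, and for the interaction 963 to 1739, against 1900.

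Deviations of same-numbered libraries correlated by -0.08 to 0.03 over the 6 pairs of groups, so no deviation shared by equal numbers was seen. This cannot tell whether equal numbers share an animal or a batch. The replicate block gave 406 genes without LPS. Depth limits Ccl5 without LPS, which rests on 32 to 51 reads per library.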

Other observations

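Genes around chemokine receptor signalling were read in the same libraries. With LPS, of 28 tested genes of receptor signalling 3 were higher, 9 lower and 16 did not pass in KO-labelled against WT cells (median -0.11; with TPM 10 were higher and 4 lower, median 0.10), where 10.8% of all tested genes were higher and 18.1% lower. Arrb1, a beta-arrestin that ends receptor signalling, was higher (log2 1.62, limma adjusted p = 6.725e-05), and the G protein regulators Rgs14 (-1.35, adjusted p = 1.184e-04) and Rgs1 (-0.86, adjusted p = 0.001147) were lower. The phospholipase Plcb2 was lower with LPS (-0.36, adjusted p = 0.01864) and without (-0.77, adjusted p = 0.004917). Its call with LPS ended with TPM or total-read scaling (-0.33 and -0.22) and without KO-labelled replicate 2 or WT replicate 1 with LPS, and its call without LPS ended without either KO-labelled library lacking LPS.

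Of 8 tested genes that process or carry chemokines, 1 was higher, 5 were lower and 2 did not pass with LPS (median -0.26; with TPM 2 were higher and 1 lower, median -0.05), against the same 10.8% and 18.1% of all tested genes. Sdc1, a heparan sulfate proteoglycan that binds chemokines, was higher with LPS (0.58, adjusted p = 5.746e-04) but lower without (-0.68, adjusted p = 0.002177), with an interaction of 1.26 (adjusted p = 7.138e-04). The hyaluronan receptor Cd44 was lower with LPS (-0.52, adjusted p = 6.953e-04), while Sdc3 (-0.24, adjusted p = 0.04925) and Sdc4 (-0.28, adjusted p = 0.01222) were lower with LPS but did not pass with TPM, total-read or quantile scaling. Without LPS Sdc3 was lower (-0.68, adjusted p = 0.004435) and Sdc4 higher (0.29, adjusted p = 0.03899), and the Sdc4 call ended without any 1 of the 6 libraries other than KO-labelled with LPS.

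Of 22 tested transcription factors and mRNA decay factors known for these chemokine genes, 2 were higher, 14 lower and 6 did not pass with LPS (median -0.30), against 3 higher and 6 lower with TPM (median -0.10). Over all tested genes 10.8% were higher and 18.1% lower, and of the genes called 73.2% were higher with TPM, against 37.4% as deposited. Atf3, a repressor known to be induced by LPS (-0.99, limma adjusted p = 6.098e-05), Irf7, an interferon regulatory factor (-0.81, adjusted p = 1.105e-04), Zfp36, which promotes decay of AU-rich transcripts (-0.57, adjusted p = 0.001341), and Irf5 (-0.51, adjusted p = 3.15e-04) were among the lower ones. Here Atf3 rose with LPS in WT cells (0.93, adjusted p = 1.095e-06) but did not pass in KO-labelled cells (-0.05, adjusted p = 0.3075). Its interaction was -0.98 (adjusted p = 6.992e-04). Without LPS Irf7 was lower too (-1.50, adjusted p = 5.048e-05). Irf7 rose more with LPS in KO-labelled than in WT cells, with an interaction of 0.69 (adjusted p = 0.001752) that did not pass with a pseudocount of 5 (0.19). Irf5 was also lower without LPS (-0.35, adjusted p = 0.00655), a call that ended without either KO-labelled library lacking LPS.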
